A study of Mus musculus with 10 samples.

Results

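A set of 7 genes that code for surface or secreted proteins of biliary progenitor cells were followed: Spp1, Epcam, Cdh1, Prom1, Cd24a, Cd44 and Ncam1. They were taken by gene symbol, and all 7 of 7 were found among the 49568 genes measured. Sequencing was done on RNA of reactive cholangiocytes, which are duct cells that expand in an injured liver, from 5 Smad4del and 5 Ctl mice. Smad4del mice are labelled Smad4fl/fl and, by the methods of the study, carried Alb-Cre, which acts in hepatocytes and bile duct cells. Ctl mice are labelled Smad4wt/wt and, by the same methods, lacked Alb-Cre, so that loss of Smad4 and presence of Cre cannot be told apart. All mice were of mixed background and had eaten chow with 0.1% DDC, a compound that injures bile ducts, for 2 weeks. Viable cells of the digested livers were then sorted as EPCAM+/CD45-/TER119-, so that the protein of one of the 7 genes, Epcam, was also the antigen of the sort. Age, sex and litter are not given in the labels used here.

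Bile duct cells of an injured liver share surface proteins with the progenitor cells that give rise to both hepatocytes and cholangiocytes. EPCAM and E-cadherin (Cdh1) hold epithelial cells together, and prominin 1 (Prom1, CD133), CD24 (Cd24a), CD44 and NCAM (Ncam1) are surface proteins widely used to mark or sort such progenitors. Osteopontin (Spp1) is a secreted phosphoprotein of bile duct cells that binds integrins and CD44.

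The libraries held 16734672 to 19710560 reads on genes in Smad4del mice and 16249719 to 21277339 in Ctl mice. Values are DESeq2-normalized counts, which are reads per gene divided by 1 size factor per mouse. Smad4 was at 687 to 1031 in Smad4del mice and 2969 to 3714 in Ctl mice, a log2 fold change of -1.96 (SE 0.123, adjusted p = 1.09e-05, limma). The 2 most abundant of 23 listed cholangiocyte markers were Krt8 and Krt18. They averaged 97313 ± 10666 and 79165 ± 9274 in Smad4del mice, against 80260 ± 7409 and 69478 ± 5454 in Ctl mice (SD, n = 5 each). Krt19 averaged 30191 ± 5034 in Smad4del mice and 20800 ± 2472 in Ctl mice (SD, n = 5 each). Krt7 averaged 9673 ± 1548 in Smad4del mice and 9760 ± 2161 in Ctl mice (SD, n = 5 each). Genes of other liver cells were also read. The summed normalized counts of 18 hepatocyte markers were 93022 to 143558 in Smad4del mice and 86647 to 121494 in Ctl mice. The summed normalized counts of 18 endothelial markers were 7515 to 16059 in Smad4del mice and 22270 to 63702 in Ctl mice, and those of 18 macrophage markers were 26637 to 111194 in Smad4del mice and 38795 to 329700 in Ctl mice. Cd14 alone, at 20150 to 27133 in Smad4del mice and 24625 to 37570 in Ctl mice, made up most of the lowest macrophage sums. Ptprc, the gene of CD45, against which cells were sorted, was at 54.3 to 1176 in Smad4del mice and 94.4 to 2719 in Ctl mice. Ctl mouse A5215 stood apart, with the highest summed level of endothelial, macrophage, stellate and leukocyte markers of all mice (63702, 329700, 68517 and 43665) and the lowest of cholangiocyte markers (226434). In bulk samples such as these, fewer cells of a type and less RNA per cell cannot be told apart.

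The DNA around the start sites is shown first, because the factor that Smad4 belongs to acts on short DNA elements near genes. RefSeq start windows on GRCm38.p6, from 250 bases before to 50 after a start, were found for 4 of the 7 genes (6 windows): Spp1, Epcam, Prom1 and Cd44. One window each is printed for the secreted member, the sort antigen, and the members with the larger upward and downward differences among those matched. Both strands were searched for the SMAD element CAGAC, the SMAD element GGCGCC, the E-box CACCTG that binds Snail and Zeb repressors, and the TATA element TATAAA. Capitals mark every match on either strand, and no matches overlapped in these windows. The windows are chr5:104434861-104435160 (+) for Spp1, chr17:87635729-87636028 (+) for Epcam, chr5:44101687-44101986 (-) for Prom1 and chr2:102901616-102901915 (-) for Cd44.
Spp1: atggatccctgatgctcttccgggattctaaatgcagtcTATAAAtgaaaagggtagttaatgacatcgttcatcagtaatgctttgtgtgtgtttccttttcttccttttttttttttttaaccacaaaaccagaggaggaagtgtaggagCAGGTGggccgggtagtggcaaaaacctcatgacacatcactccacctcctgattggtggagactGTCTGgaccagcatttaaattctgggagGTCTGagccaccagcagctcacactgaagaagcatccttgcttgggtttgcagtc
Epcam: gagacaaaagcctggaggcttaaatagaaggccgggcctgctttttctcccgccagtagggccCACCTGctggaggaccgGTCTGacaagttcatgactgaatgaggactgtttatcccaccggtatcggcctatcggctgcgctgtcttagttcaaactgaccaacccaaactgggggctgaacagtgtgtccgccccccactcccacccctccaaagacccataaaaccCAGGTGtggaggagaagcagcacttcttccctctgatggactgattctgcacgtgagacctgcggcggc
Prom1: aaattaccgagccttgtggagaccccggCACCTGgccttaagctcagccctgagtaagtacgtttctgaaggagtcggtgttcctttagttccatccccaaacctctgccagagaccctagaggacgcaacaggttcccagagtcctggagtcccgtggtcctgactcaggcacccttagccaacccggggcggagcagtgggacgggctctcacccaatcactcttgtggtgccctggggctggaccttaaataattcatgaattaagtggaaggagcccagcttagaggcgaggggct
Cd44: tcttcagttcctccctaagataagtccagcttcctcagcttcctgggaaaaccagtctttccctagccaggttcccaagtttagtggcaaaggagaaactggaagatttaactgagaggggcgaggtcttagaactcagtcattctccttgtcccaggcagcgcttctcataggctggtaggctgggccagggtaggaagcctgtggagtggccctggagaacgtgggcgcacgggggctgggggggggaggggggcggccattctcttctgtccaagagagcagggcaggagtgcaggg

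The Spp1 window held 2 CAGAC matches, 1 CACCTG match and 1 TATAAA match. The Epcam window held 1 CAGAC match and 2 CACCTG matches, the Prom1 window held 1 CACCTG match and the Cd44 window held none of the searched letters. Among all 32851 start windows of the same length, CAGAC was found in 49.6%, CACCTG in 20.2%, TATAAA in 13.6% and GGCGCC in 11.9%. A match describes the letters only.

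The 7 genes spanned a wide range of levels. Spp1 was the gene with the second highest value in each Smad4del mouse and ranked 2 to 3 in Ctl mice, and took 2.56% of all reads on genes in Smad4del mice and 1.96% in Ctl mice. Cdh1 ranked 14 to 33 in Smad4del mice and 19 to 47 in Ctl mice, and Epcam ranked 31 to 47 in Smad4del mice and 42 to 99 in Ctl mice. Ncam1 ranked 10789 to 11374 in Smad4del mice and 8654 to 10143 in Ctl mice, and was counted with 83 to 117 reads per Smad4del mouse and 189 to 364 per Ctl mouse. Levels of different genes were compared as normalized counts per kb of exon, with exon lengths from GENCODE M21 on GRCm38. On this scale the order was Spp1, Epcam, Cdh1, Cd24a, Cd44, Prom1 and Ncam1. Mean Spp1 was 22.0 times mean Epcam and mean Prom1 was 42.0 times mean Ncam1, and both orders held in 10 of 10 mice. Mean Epcam was 1.54 times mean Cdh1 and mean Cdh1 was 1.52 times mean Cd24a, and these orders also held in 10 of 10 mice. The order of Cd44 and Prom1 held in 8 of 10 mice only, with 1034 ± 196 for Cd44 and 951 ± 121 for Prom1 in Smad4del mice, against 1486 ± 97.6 for Cd44 and 705 ± 127 for Prom1 in Ctl mice (SD, n = 5 each).

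**Figure D1:**
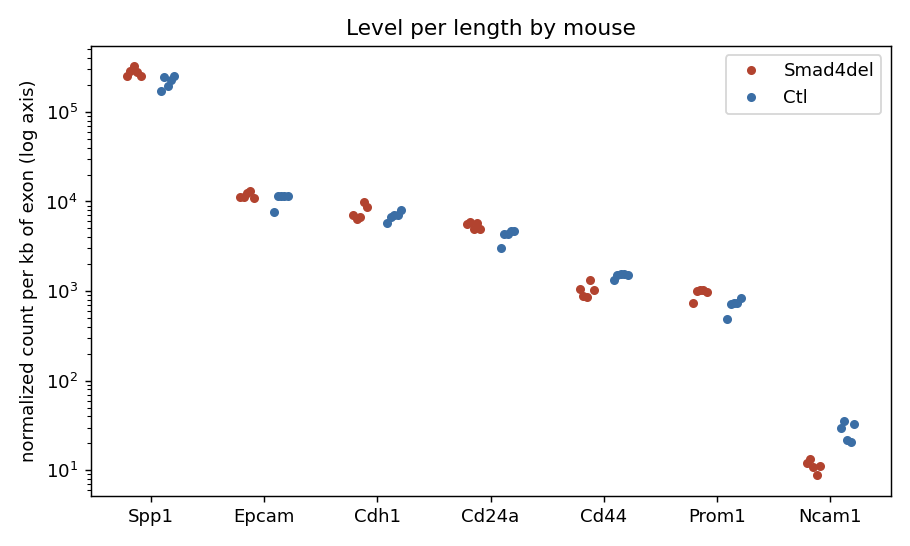
Normalized counts per kb of exon of the 7 genes, 1 point per mouse, on a log axis, Smad4del left of Ctl. Spp1 lies highest and Ncam1 lowest in every mouse, and Cd44 and Prom1 are closest to each other in Smad4del mice (means of 1034 and 951).

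Between the cohorts, 2 of the 7 genes passed the test, and both were lower in Smad4del mice: Ncam1 and Cd44. No member was called higher by limma on log2(normalized count + 1) with adjustment over 14870 genes, although 3 members (Spp1, Prom1 and Cd24a) were higher at an unadjusted p under 0.05. The share of all genes at that unadjusted threshold is not given for this fit, here or for the lists below. DESeq2 on reads recovered from the values called 2 members higher, Prom1 and Cd24a, and the same 2 lower, and edgeR called 0 higher and 2 lower. Without mouse A5217, DESeq2 called 0 members higher and 2 lower. Of the 14870 genes tested, limma called 2.43% higher and 4.69% lower, and edgeR 2.1% higher and 4.02% lower. DESeq2 called 5.66% higher and 8.36% lower, of the 16435 genes to which it gave an adjusted p. The cohorts did not overlap for 2 of 7 members, Ncam1 and Cd24a, against 8.09% of all genes tested. The median log2 fold change was 0.15 over the 7 members and -0.00497 over all genes tested.

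**Figure D2:**
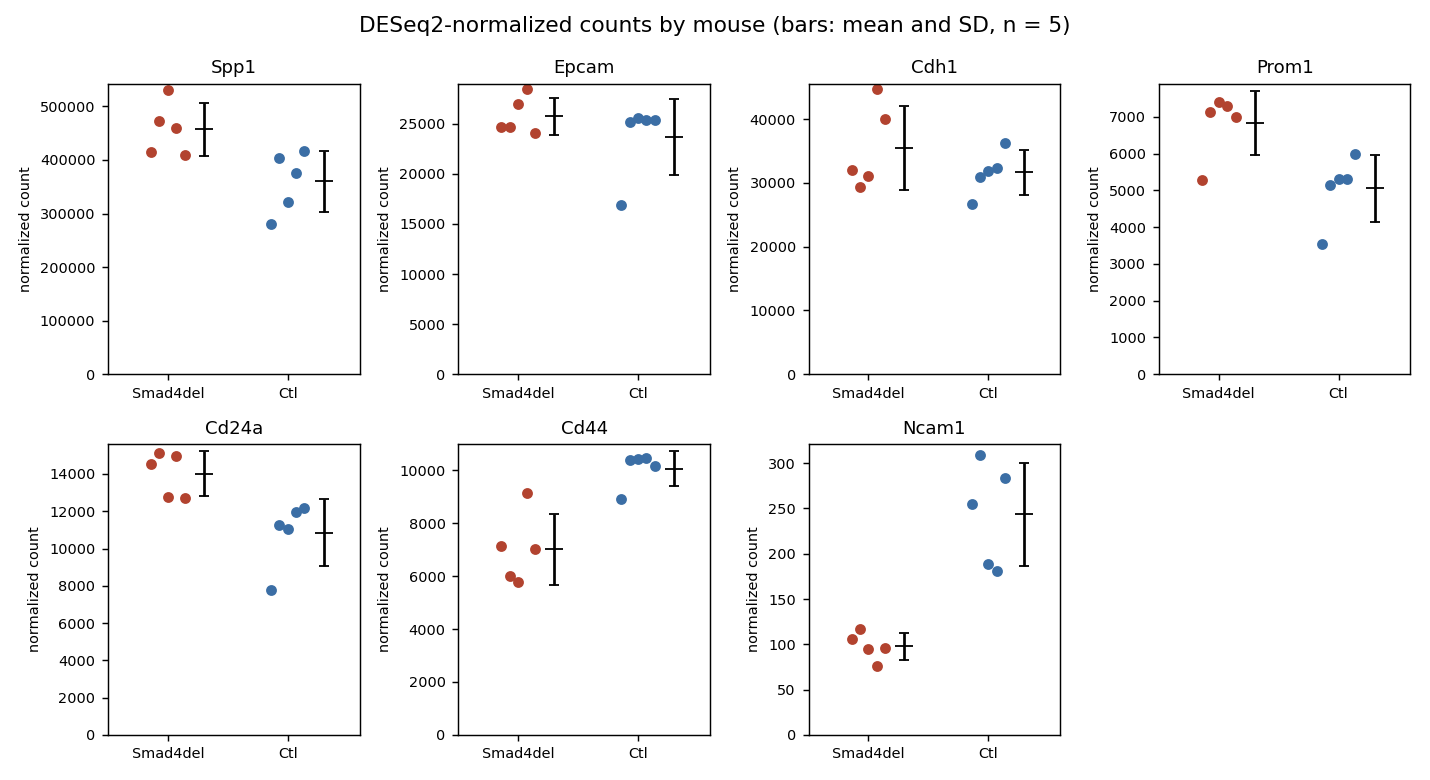
Normalized counts of the 7 genes in each mouse (points), with the mean and SD of each cohort (bars, n = 5), Smad4del left of Ctl. The cohorts are apart for Ncam1 (76.5 to 117 in Smad4del mice, 181 to 309 in Ctl mice) and Cd24a (12689 to 15132 in Smad4del mice, 7785 to 12194 in Ctl mice), and Ctl mouse A5215 has the lowest Ctl value in 6 of the 7 panels.

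**Figure D3:**
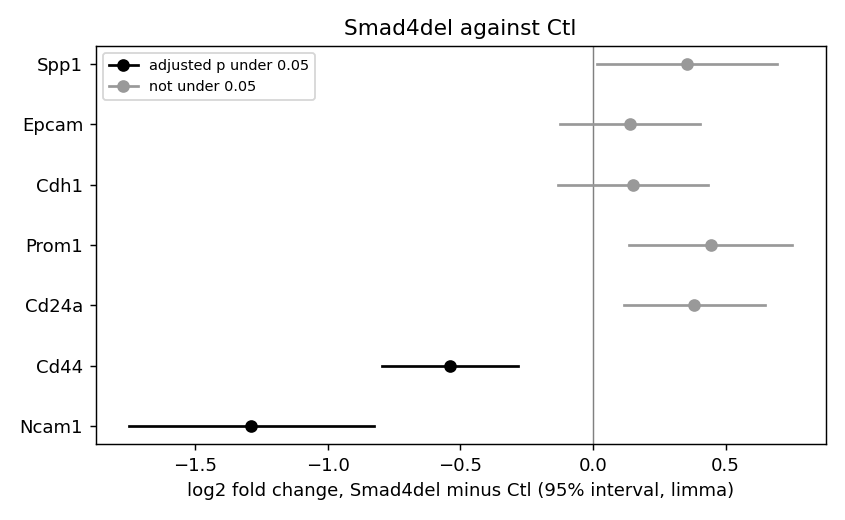
Log2 fold changes of the 7 genes, Smad4del minus Ctl, with 95% intervals from limma. Black marks an adjusted p under 0.05, which Cd44 (-0.54) and Ncam1 (-1.29) reached, and grey marks the other 5 genes.

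Ncam1 codes for the neural cell adhesion molecule, an immunoglobulin-family surface protein that binds itself on neighbouring cells and marks reactive bile ductules. The gene lies on chromosome 9 (49502136 to 49798925, minus strand). Its normalized counts were 106, 117, 94.3, 76.5 and 96.0 in Smad4del mice A5216, A5217, A5218, A5447 and A5624, against 255, 309, 189, 181 and 284 in Ctl mice A5215, A5219, A5221, A5626 and A5628. Every Smad4del mouse was below every Ctl mouse. The log2 fold change was -1.29 (SE 0.211, 95% interval -1.75 to -0.83, adjusted p = 0.00599, limma), and the exact two-sided permutation p was 0.00794, the smallest that 5 against 5 mice can give. The fall passed the test when any single mouse was left out (log2 fold change -1.39 to -1.19), but not with mice of the number series A52 alone (-1.22, adjusted p = 0.0823). With the macrophage level as a covariate the log2 fold change was -1.27 (adjusted p = 0.0329, limma). With the endothelial level as a covariate it was -1.55 (SE 0.448, adjusted p = 0.796, limma). That level did not overlap between the cohorts (8.12 to 9.25 in Smad4del mice, 9.73 to 11.2 in Ctl mice). A fit with it can therefore hardly tell it from genotype, for Ncam1 or the other members. NCAM1 is also carried by hepatic stellate cells, whose 16 markers summed to 22590 to 31938 in Smad4del mice and 34834 to 68517 in Ctl mice, and their part in the result was not tested. A large part of these sums was Rgs5, at 12324 to 15243 in Smad4del mice and 10946 to 15721 in Ctl mice (log2 fold change 0.04, adjusted p = 0.841, limma).

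Cd44 codes for the main receptor of hyaluronan, which also binds osteopontin. It lies on chromosome 2 (102811141 to 102901665, minus strand), and values per gene do not separate its splice forms. Its normalized counts were 7133, 5994, 5770, 9129 and 7021 in Smad4del mice A5216, A5217, A5218, A5447 and A5624, against 8904, 10373, 10426, 10472 and 10162 in Ctl mice A5215, A5219, A5221, A5626 and A5628. The cohorts overlapped by 1 mouse each, since Smad4del mouse A5447 was above Ctl mouse A5215. Cd44 fell by 0.54 on the log2 scale (SE 0.117, 95% interval -0.80 to -0.28, adjusted p = 0.0208, limma; exact two-sided permutation p = 0.0159). The call was lost without Smad4del mouse A5217 (-0.49, adjusted p = 0.0601), without Smad4del mouse A5218 (-0.47, adjusted p = 0.0556) and without Ctl mouse A5221 (-0.53, adjusted p = 0.0527). With the macrophage level as a covariate the log2 fold change was -0.66 (adjusted p = 0.0261, limma). With the endothelial level as a covariate it was -0.38 (adjusted p = 0.997, limma). CD44 is also carried by leukocytes and endothelial cells. The 8 leukocyte markers summed to 1327 to 14008 in Smad4del mice and 2381 to 43665 in Ctl mice, with 0 of 8 called by limma, DESeq2 or edgeR and 4 lower at an unadjusted p under 0.05, and their part in the result was not tested.

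Around CD44, 15 of 18 listed genes for its ligands, splicing and cytoskeletal linkers could be tested, of which 1 was higher and 3 were lower in Smad4del mice, with a median log2 fold change of -0.17. Msn, the gene of moesin, which links CD44 to actin, averaged 4310 ± 884 in Smad4del mice and 11634 ± 2679 in Ctl mice (log2 fold change -1.43, adjusted p = 0.00107, limma, n = 5 each). Hmmr, the gene of another hyaluronan receptor that also acts at the mitotic spindle, averaged 377 ± 74.0 in Smad4del mice and 159 ± 36.9 in Ctl mice (1.25, adjusted p = 0.00536, limma, n = 5 each). Hyal2, the gene of a hyaluronidase, averaged 2166 ± 168 in Smad4del mice and 2744 ± 243 in Ctl mice (-0.34, adjusted p = 0.0357, limma, n = 5 each). Around CD24 and NCAM1, 11 of 14 listed ligands and partners could be tested, with 0 higher, 3 lower and a median of -0.97. Selp, the gene of P-selectin, a ligand of CD24 on endothelium, was at 262 to 650 in Smad4del mice and 1867 to 5385 in Ctl mice (-2.82, adjusted p = 0.000539, limma). Fyn, a kinase that signals below NCAM1, was at 279 to 544 in Smad4del mice and 778 to 2022 in Ctl mice (-1.47, adjusted p = 0.00682, limma), and Prnp, the prion protein gene, was at 826 to 932 in Smad4del mice and 878 to 1919 in Ctl mice (-0.61, adjusted p = 0.0481, limma), a call that was lost without Ctl mouse A5215.

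Cd24a codes for CD24, a small sugar-coated surface protein anchored by lipid, and lies on chromosome 10 (43578284 to 43584265, plus strand). Its normalized counts were 14513, 15132, 12741, 14981 and 12689 in Smad4del mice A5216, A5217, A5218, A5447 and A5624, against 7785, 11288, 11057, 11958 and 12194 in Ctl mice A5215, A5219, A5221, A5626 and A5628. Every Smad4del mouse was above every Ctl mouse, but the lowest Smad4del value was close to the highest Ctl value. The log2 fold change was 0.38 (SE 0.122, 95% interval 0.12 to 0.65), which did not pass the adjusted threshold (adjusted p = 0.0748, limma; exact two-sided permutation p = 0.00794). DESeq2 gave 0.37 (adjusted p = 0.0409), but 0.34 without mouse A5217 (adjusted p = 0.13). Limma gave 0.27 without Ctl mouse A5215 (adjusted p = 0.0919) and 0.0399 with the endothelial level as a covariate (adjusted p = 0.997).

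Prom1 codes for prominin 1, a membrane protein of apical protrusions and cilia, and lies on chromosome 5 (43993620 to 44102032, minus strand). Its normalized counts were 5290, 7139, 7389, 7300 and 6996 in Smad4del mice A5216, A5217, A5218, A5447 and A5624, against 3530, 5157, 5301, 5310 and 5985 in Ctl mice A5215, A5219, A5221, A5626 and A5628. Smad4del mouse A5216 lay within the Ctl range, and the other 4 Smad4del mice lay above it. The log2 fold change was 0.44 (SE 0.141, 95% interval 0.13 to 0.75, adjusted p = 0.0742, limma; exact two-sided permutation p = 0.0317). Without mouse A5216 it was 0.53 (adjusted p = 0.0411, limma), with Xist as a covariate 0.50 (adjusted p = 0.0444, limma) and by DESeq2 0.43 (adjusted p = 0.0353). It was 0.41 by DESeq2 without mouse A5217 (adjusted p = 0.102), 0.32 by limma without Ctl mouse A5215 (adjusted p = 0.114), 0.17 with the macrophage level as a covariate (adjusted p = 0.426) and -0.0214 with the endothelial level as a covariate (adjusted p = 0.998). Xist was at 889 normalized counts in Smad4del mouse A5447, against 769 and 823 in Ctl mice A5221 and A5628, and at most 1.70 in the others. Of 9 listed partners of prominins and genes of apical protrusions, 8 could be tested and 0 were called by limma, DESeq2 or edgeR, with 0 at an unadjusted p under 0.05. The most abundant of them, Pkd2, a cation channel gene of the primary cilium, was at 2236 to 2846 in Smad4del mice and 1952 to 2821 in Ctl mice.

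Spp1, on chromosome 5 (104435118 to 104441050, plus strand), had normalized counts of 415025, 471989, 530196, 459126 and 409022 in Smad4del mice A5216, A5217, A5218, A5447 and A5624, against 280899, 404108, 321738, 375759 and 417243 in Ctl mice A5215, A5219, A5221, A5626 and A5628. Only Ctl mouse A5628 reached into the Smad4del range. The log2 fold change was 0.35 (SE 0.156, 95% interval 0.01 to 0.69), which did not pass the test (adjusted p = 0.166, limma; exact two-sided permutation p = 0.0238). Of 16 osteopontin receptors and processing enzymes, 0 were called higher and 1 lower, with a median log2 fold change of -0.36. The gene called was Itga4, an integrin subunit used mainly by leukocytes, at 7.31 to 42.5 in Smad4del mice and 40.0 to 520 in Ctl mice (-3.02, adjusted p = 0.0212, limma).

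Epcam and Cdh1 did not differ detectably. Epcam, on chromosome 17 (87635979 to 87651129, plus strand), averaged 25766 ± 1862 in Smad4del mice and 23657 ± 3803 in Ctl mice (SD, n = 5 each). Its log2 fold change was 0.14 (95% interval -0.13 to 0.40, adjusted p = 0.484, limma), and 0.02 without Ctl mouse A5215, whose value of 16857 was the lowest of the 10. Cdh1, on chromosome 8 (106603351 to 106670246, plus strand), averaged 35432 ± 6579 in Smad4del mice and 31638 ± 3471 in Ctl mice (SD, n = 5 each), a log2 fold change of 0.15 (95% interval -0.13 to 0.43, adjusted p = 0.473, limma). The Smad4del mice fell into 3 of the number series A52, at 29403 to 32013, and A5447 and A5624 at 44673 and 39989.

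Of 14 listed genes for the paralog, partners and proteases of EPCAM, 2 were higher and 1 was lower in Smad4del mice, with a median log2 fold change of 0.02. Tspan8, a tetraspanin gene, averaged 19968 ± 2455 in Smad4del mice and 12473 ± 2404 in Ctl mice (0.69, adjusted p = 0.0116, limma, n = 5 each). Prss8, the gene of the membrane protease prostasin, averaged 1899 ± 217 in Smad4del mice and 1219 ± 198 in Ctl mice (0.65, adjusted p = 0.0117, limma, n = 5 each). Adam10, the gene of a protease that sheds surface proteins, averaged 2892 ± 513 in Smad4del mice and 4338 ± 805 in Ctl mice (-0.59, adjusted p = 0.0345, limma, n = 5 each), a call that was lost without Ctl mouse A5215. Of 18 cadherin and catenin genes, 0 were higher and 1 was lower, with a median of -0.09. That gene was Cdh17, an intestinal and bile duct cadherin, at 968 to 1707 in Smad4del mice and 2227 to 4869 in Ctl mice (-1.58, adjusted p = 0.00222, limma). Of 15 repressors and activators of E-cadherin, 12 could be tested, with 0 higher, 2 lower and a median of -0.24. Klf4, a transcription factor gene of differentiating epithelia, was at 291 to 629 in Smad4del mice and 645 to 1651 in Ctl mice (-1.26, adjusted p = 0.0275, limma), and Zeb2, a repressor of E-cadherin, was at 82.1 to 355 in Smad4del mice and 264 to 1415 in Ctl mice (-1.99, adjusted p = 0.0392, limma). Neither of these 2 was called without Ctl mouse A5215, in which macrophage and endothelial markers were highest. Of the E-cadherin regulators, 2 were higher at an unadjusted p under 0.05, 1 by DESeq2 and 0 by edgeR. DESeq2 called 5 of these regulators, 3 of the osteopontin list and 2 of the cadherin list lower. In the lists of osteopontin receptors, of cadherins and catenins, and of CD24 and NCAM1 partners, 0 genes were higher at an unadjusted p under 0.05, by DESeq2 or by edgeR.

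The ratio of each gene to Epcam within a mouse does not depend on the size factor. Of 6 such log2 ratios, Cd44 and Ncam1 did not overlap between the cohorts. The share of all genes whose ratio to Epcam did not overlap is not given, so no excess is read from this count. Cd44 itself did overlap. Ctl mouse A5215, with the lowest Epcam value, had a Cd44 ratio of -0.92, against -1.32 to -1.28 in the other Ctl mice. The Cd44 ratio averaged -1.89 ± 0.235 in Smad4del mice and -1.22 ± 0.167 in Ctl mice (SD, n = 5 each), a difference of -0.68 (exact two-sided permutation p = 0.00794). The Ncam1 ratio averaged -8.04 ± 0.313 in Smad4del mice and -6.61 ± 0.471 in Ctl mice (SD, n = 5 each), a difference of -1.43 (exact two-sided permutation p = 0.00794). The difference was 0.31 for Prom1 and 0.24 for Cd24a (exact permutation p = 0.0159 each), 0.22 for Spp1 (exact permutation p = 0.0317) and 0.01 for Cdh1 (exact permutation p = 0.905). These 6 p-values are raw. With the mean of Epcam, Krt19 and Krt7 as denominator, the differences of Prom1 (0.22), Cd24a (0.16) and Spp1 (0.13) no longer had a p under 0.05. Krt19 was itself called higher in Smad4del mice (log2 fold change 0.53, adjusted p = 0.027, limma). Its use in the denominator lowers all 6 differences, so the check is not independent of that call.

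**Figure D4:**
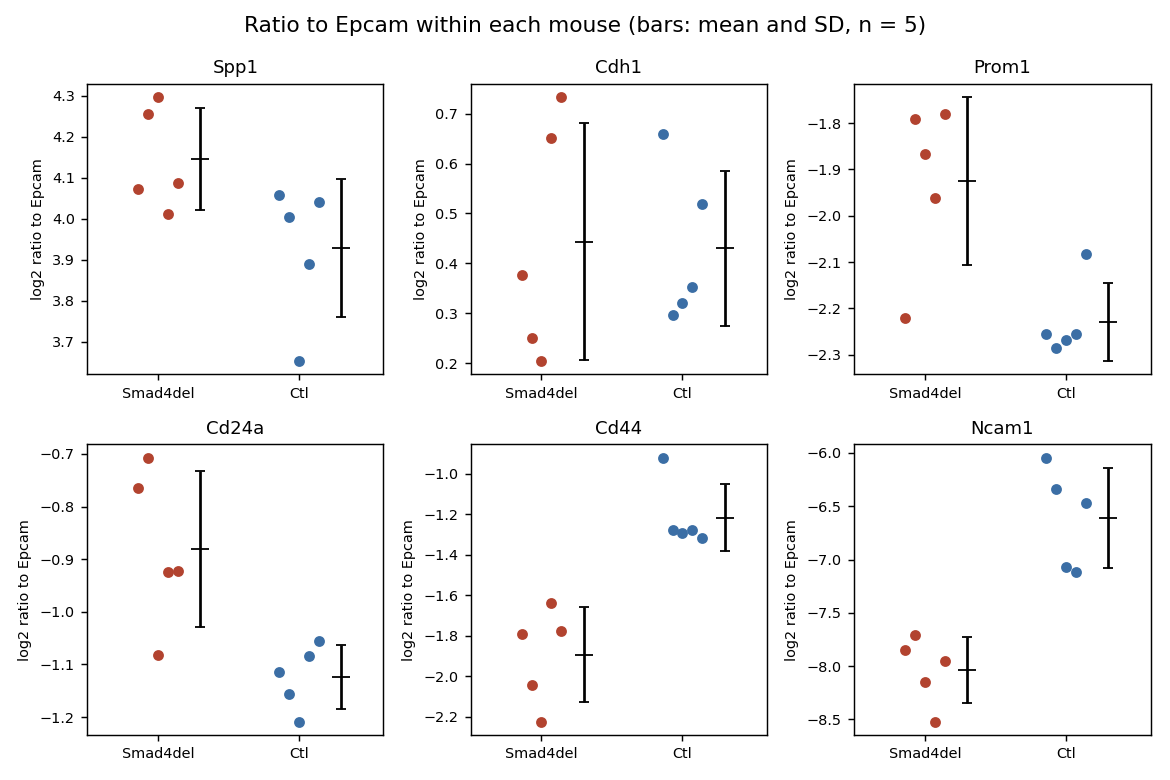
Log2 ratio of 6 genes to Epcam within each mouse (points), with the mean and SD of each cohort (bars, n = 5), Smad4del left of Ctl. The ratios of Cd44 (means of -1.89 and -1.22) and Ncam1 (means of -8.04 and -6.61) are apart, and those of Cdh1 (0.44 and 0.43) lie together.

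Markers of some other cell types differed between the cohorts, most clearly those of endothelium. Of 18 endothelial markers, 0 were called higher and 16 lower, with a median log2 fold change of -1.54, and 15 did not overlap. Kdr, a receptor for vascular growth factors, was at 359 to 1523 in Smad4del mice and 2461 to 10662 in Ctl mice, and Clec4g, a sinusoidal lectin gene, was at 1459 to 2347 in Smad4del mice and 3000 to 9249 in Ctl mice. Of 16 stellate and fibroblast markers, 3 were lower and 0 higher, with a median of -1.05, and 9 were lower by DESeq2 and 10 at an unadjusted p under 0.05. Dcn, a matrix proteoglycan gene, was at 1795 to 4791 in Smad4del mice and 7035 to 25813 in Ctl mice, and Rgs5, a gene of pericytes, was at 12324 to 15243 in Smad4del mice and 10946 to 15721 in Ctl mice. All 18 macrophage markers had negative log2 fold changes (median -2.51), of which limma and edgeR called 0 and DESeq2 1, with 18 at an unadjusted p under 0.05. Of 8 mesothelial markers, 1 was lower (median -1.10), with 4 lower by DESeq2 and 7 at an unadjusted p under 0.05. Of 23 cholangiocyte markers, 6 were higher and 2 lower (median 0.18). When Ctl mouse A5215 was left out, 2 were higher and 2 lower. Over all genes tested, limma then called 199 higher and 461 lower, against 362 and 697 with all 10 mice. None of 18 hepatocyte markers was called by limma or edgeR and DESeq2 called 5 higher, with 6 higher at an unadjusted p under 0.05. The hepatocyte marker Gc was at 37892 to 44461 in Smad4del mice and 33447 to 57913 in Ctl mice. Alb was at 16700 to 44417 in Smad4del mice and 12200 to 27690 in Ctl mice. Neutrophil markers summed to 103 to 2260 in Smad4del mice and 268 to 4244 in Ctl mice, B cell markers to 30.4 to 202 in Smad4del mice and 28.9 to 413 in Ctl mice, and erythroid markers to 36.8 to 11400 in Smad4del mice and 189 to 4917 in Ctl mice. Limma and edgeR called 0 genes of these lists, DESeq2 called 1 neutrophil marker lower, and 2 neutrophil markers were lower at an unadjusted p under 0.05. Among their defining markers, Ly6g (neutrophils), Pax5 (B cells) and Slc4a1 (erythroid cells) were at 0 in all mice. Of 13 T and NK cell markers, 3 could be tested. Limma and DESeq2 each called 1 lower and edgeR 0, and limma called 0 without Ctl mouse A5215. The limma call was Cd4, at 0 to 9.98 in Smad4del mice and 14.4 to 192 in Ctl mice (-4.15, adjusted p = 0.0268, limma). Lck was at 106 to 200 in Smad4del mice and 117 to 172 in Ctl mice. The part of these cells in the values of the 7 genes was not tested.

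**Figure D5:**
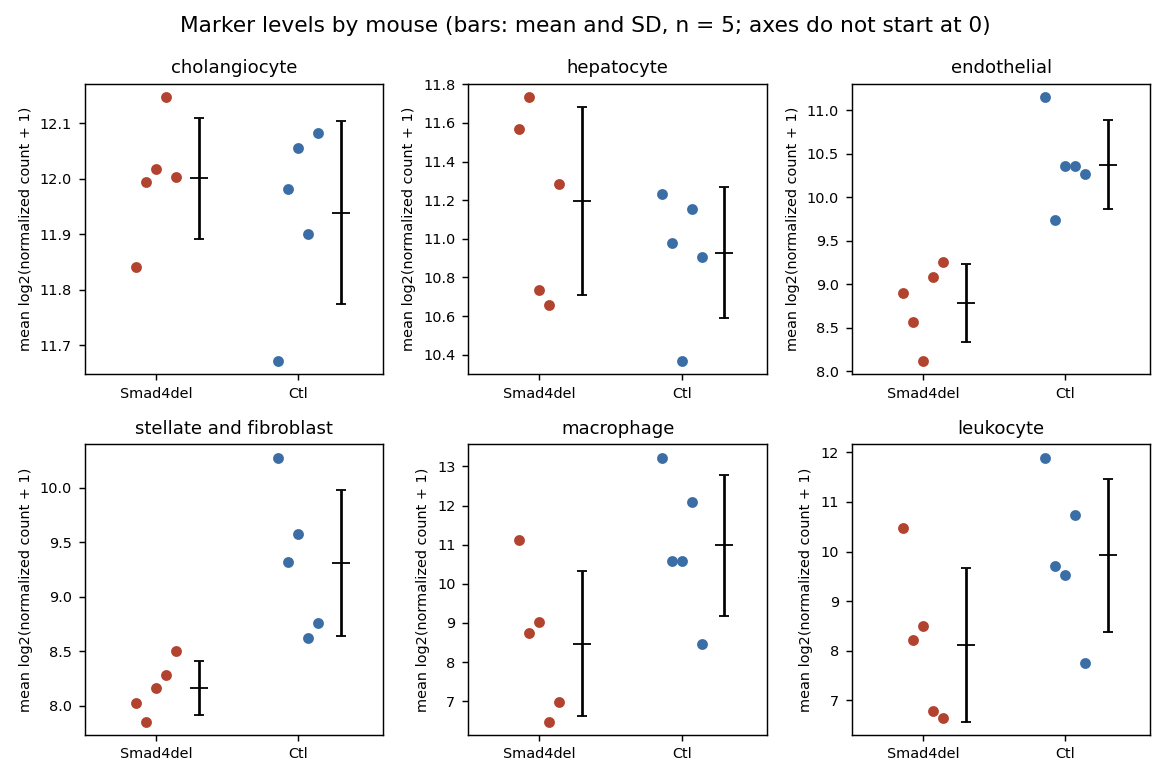
Mean log2(normalized count + 1) of 6 lists of cell type markers in each mouse (points), with the mean and SD of each cohort (bars, n = 5), Smad4del left of Ctl. Endothelial levels are apart (8.12 to 9.25 in Smad4del mice, 9.73 to 11.2 in Ctl mice), as are stellate and fibroblast levels (7.85 to 8.50 in Smad4del mice, 8.62 to 10.3 in Ctl mice).

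Of 20 other surface and secreted markers of liver progenitors, 18 could be tested, with 1 higher, 3 lower and a median log2 fold change of -0.14. DESeq2 called 4 higher and 4 lower, and 4 were higher and 6 lower at an unadjusted p under 0.05. Muc1, the gene of an apical mucin, averaged 12033 ± 917 in Smad4del mice and 7761 ± 1823 in Ctl mice (0.66, adjusted p = 0.0208, limma, n = 5 each). Aqp1, a water channel gene of bile ducts and endothelium, averaged 6626 ± 2062 in Smad4del mice and 19350 ± 5557 in Ctl mice (-1.55, adjusted p = 0.00652, limma, n = 5 each). Mcam, an adhesion gene also used by endothelium, was at 565 to 1003 in Smad4del mice and 1001 to 1907 in Ctl mice (-1.10, adjusted p = 0.00833, limma).

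Within the cohorts, after removal of each cohort's mean, none of 21 pairs of the 7 genes had an adjusted permutation p under 0.05 over the 10 mice. The pair with the lowest p was Spp1 and Prom1 (Pearson r = 0.76, permutation p = 0.0115, adjusted p = 0.13; Spearman rho = 0.76, permutation p = 0.0214, adjusted p = 0.25), and r was 0.45 without mice A5215 and A5628. Cdh1 and Cd44 had r = 0.83 (permutation p = 0.0124, adjusted p = 0.13; rho = 0.66, permutation p = 0.0606, adjusted p = 0.256) and 0.63 without mice A5217 and A5447. The 7 genes and 11 marker levels gave 77 relations, of which none had an adjusted p under 0.05. Among 12542 genes with a mean of at least 50, the patterns most like those of the members over these 10 mice, by cohort-centred Pearson r, were those of Rassf7, Hpn and Pja1 for Spp1 (r of 0.96, 0.96 and 0.93), Cldn6, Kcnk1 and Svip for Epcam (0.98, 0.97 and 0.96), and Ptprf, Ddb1 and Ptprk for Cdh1 (0.99, 0.98 and 0.98). They were Serpina1c, Zfp617 and Chfr for Prom1 (0.98, 0.97 and 0.97), Ncmap, Hes6 and Tcp1 for Cd24a (0.97, 0.95 and 0.94), Itgb6, Anapc4 and Rragd for Cd44 (0.94, 0.93 and 0.93) and Smt3h2-ps, Ccl27a and Serpina1b for Ncam1 (0.93, 0.91 and 0.90). The points share libraries, and without Ctl mouse A5215 the values for the Epcam partners were 0.81, 0.71 and 0.60. These correlations are a description of the 10 libraries.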

How the data were processed

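Reactive cholangiocytes of 5 Smad4del and 5 Ctl mice were analysed as 1 library per mouse. Cells were sorted from livers by the study's methods, although the labels carry a tag of cell line and a culture protocol. The deposited signal values are counts that the authors normalized with DESeq2 1.14.1 in R 3.3.2 after trimming with Trimmomatic 0.36, alignment with STAR and counting with featureCounts, per the labels and methods. The methods name GRCm38 and the labels also mm9. Whether these values include multi-mapping reads is not stated in the labels or methods. No column was left without a sample (0).

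Genes averaging 10 or more normalized counts (14870 of 49568, with 22557 at 0 in all mice) were tested with limma 3.58.1 in R 4.3.3 on log2(normalized count + 1), cohort as the only term, trended prior, Benjamini-Hochberg threshold 0.05. A fold change on this scale understates that of low genes. Values were whole multiples of 1 read (100% at a tolerance of 1e-06), and DESeq2 1.42.0 and edgeR 4.0.16 were run on these reads as alternatives, also without mouse A5217, whose step is near 1. Single values were compared with exact two-sided permutation tests in Python 3.11.15 and SciPy 1.17.1. The fits were tested on simulated data. Labels do not say that the mice are of separate litters, and p-values measure the spread between these mice.

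The members and lists were chosen with earlier results of these data known. Genes named are the 7 members, Smad4, the 3 genes most like each member, up to 3 called genes with the smallest p per pathway list (the most abundant where none was called) and the 2 most abundant markers per list described. Xist, Ptprc and markers at 0 in all mice were named, and levels of Krt19 and Krt7 given, after their values were seen. Promoter windows are from RefSeq on GRCm38.p6 and gene positions from GENCODE M21 on GRCm38. Spp1 shares exon sequence with Gm42793 on the same strand (24.1 to 90.2 normalized counts), and Prom1 and Ncam1 overlap genes on the other strand with at most 16.0 normalized counts. Alternatives were other pseudocounts (0.5 and 10), filters (none and 50), scalings, sample weights, a robust prior, mouse number series, covariates, and leaving out each mouse. Counts of list members by DESeq2, by edgeR and without mouse A5215 were chosen after seeing the data.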

Additional observations from a re-analysis of the deposited data

Results flagged for a closer look

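In 4 of 14 sets of 5 mice, 1 mouse lay far from the other 4 by Dixon's ratio of gap to range, where chance flags about 1 in 20 sets. Of the 4 mice flagged, 3 were Ctl mouse A5215, which had the lowest Ctl value of Epcam (16857), Cd24a (7785) and Cd44 (8904), with gaps of 0.954, 0.742 and 0.802 of the range. The fourth was Smad4del mouse A5216 for Prom1 (5290), with a gap of 0.813 of the range. Both mice had the highest macrophage level of their cohort, with mean log2 levels of 11.1 in Smad4del mouse A5216 and 13.2 in Ctl mouse A5215, and the lowest cholangiocyte level, with 11.8 in Smad4del mouse A5216 and 11.7 in Ctl mouse A5215. The part of these levels in the values was not tested.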

How the results depend on the processing

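No paired analysis was possible because each mouse has its own number in the labels, which mark no littermates, although the methods name littermate controls where these could be had. A fit with mouse number series as a term called the same 2 members lower (Cd44 -0.62, adjusted p = 0.00718, and Ncam1 -1.22, adjusted p = 0.019). Ncam1 kept its direction under all 28 alternatives and its call under 26 of them, and Cd44 kept its direction under all 28 and its call under 22. With mice of the number series A52 alone, 0 members were called lower by limma (Ncam1 -1.22, Cd44 -0.65, adjusted p = 0.0627 for Cd44), and 9 genes were called higher and 50 lower, by construction over fewer mice. At an unadjusted p under 0.05, 3 members were higher and 2 lower in that fit, and 1561 of all genes were higher and 1948 lower. With the endothelial level as a covariate, 0 members were called lower (Ncam1 -1.55, Cd44 -0.38), with 1 at an unadjusted p under 0.05, and 0 genes were called in either direction, with 394 higher and 346 lower at an unadjusted p under 0.05. There Spp1 (-0.21), Epcam (-0.29) and Prom1 (-0.0214) turned negative. Because the endothelial level did not overlap between the cohorts, that fit can hardly tell it from genotype. No conclusion is drawn from the calls lost there. With the macrophage level as a covariate, Epcam (-0.0138) and Cdh1 (-0.0861) turned negative, and 156 genes were called higher and 407 lower. Cd44 (-0.66) and Ncam1 (-1.27) were still called lower there. Members called higher numbered 1 with Xist as a covariate (Prom1 0.50) and 2 with DESeq2 (Prom1 0.43, Cd24a 0.37), but 0 with DESeq2 without mouse A5217 (Prom1 0.41, adjusted p = 0.102, and Cd24a 0.34, adjusted p = 0.13). DESeq2 without that mouse called 496 of all genes higher and 1026 lower. In edgeR without mouse A5217, 1 member was called lower (Ncam1 -1.38, adjusted p = 0.0188) and Cd44 was not (-0.46, adjusted p = 0.0901), and 89 genes were called higher and 265 lower. Limma called 362 genes higher and 697 lower, DESeq2 930 and 1374, and genes called higher numbered 209 with no filter, 626 after scaling to 1 median and 579 after quantile normalization. Leaving out each mouse gave 99 to 564 genes higher, 324 to 841 lower, 0 to 1 members higher (1 without A5216) and 1 to 2 lower (1 without A5217, A5218 or A5221). It gave log2 fold changes of 0.32 to 0.53 for Prom1 and -0.64 to -0.47 for Cd44. The ratio to Epcam ranged from 0.15 to 0.25 for Spp1, with 6 of 10 no longer at a p under 0.05, and from -0.0591 to 0.0730 for Cdh1. With Epcam, Krt19 and Krt7 as denominator, it was 0.13 for Spp1, -0.0732 for Cdh1, 0.22 for Prom1 and 0.16 for Cd24a. Krt19 was itself called higher in Smad4del mice, which lowers these differences. The cause of the other changes was not tested. Ncam1 rests on 83 to 364 reads per mouse, and all other members on higher read numbers.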
